A study of Mus musculus with 15 samples.

Results

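The Hox genes encode homeodomain transcription factors and lie in 4 clusters, HoxA to HoxD. Accessible chromatin in these clusters was followed in organoid lines of mouse colon cancer. A region of the deposited table was a member when it overlapped mm9 chr6:52080000-52230000 (HoxA), chr11:96030000-96250000 (HoxB), chr15:102730000-102890000 (HoxC) or chr2:74480000-74640000 (HoxD). Of 43020 regions, 33 were members, with 18 in HoxA, 13 in HoxB, 2 in HoxC and 0 in HoxD. No measured value entered this rule.

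The 15 lines share the genotype label AKP and C57Bl6 recipient mice, and they form 5 groups of 3. Lines named Met1, Met2 or Met3 were grown from liver metastases and those named Primary2 or Primary3 from primary tumours, with the round of transplantation as the number. Organoids from either source were put back into the colons of immunocompetent mice in each round, per the series' design text. No primary line of round 1 was analysed here. The age of the mice and the descent of each line are not given in the sources used here, every group carries the AKP label, and no group is normal tissue. The label of colon cancer organoids was not checked against marker genes, because the gene annotation used here is of another build than the table.

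The assay was ATAC-seq: a transposase cuts and tags open DNA, so that the count of a region rises with its openness. Values are given as CPM, the count of a region scaled to its library's TMM-adjusted total. A region is called when its edgeR adjusted p is under 0.05 over the 39952 regions tested, and all 33 members were among these. Library totals ran from 285633 counts (Primary3 replicate 2) and 790233 counts (Met1 replicate 1) to 5916109 counts, so these 2 lines are the least precise. Nothing in the labels says that lines of a group came from separate mice, so p-values measure only the spread between these lines.

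Along each cluster the genes lie in the order in which the embryo uses them from head to tail. Genes of group 13 lie at the posterior end, and CDX factors are known activators of Hox genes in the hindgut. In adult tissues Hox genes are known for keeping the position of a tissue along the body axis, and Polycomb proteins are known to hold their chromatin closed where they are off. RefSeq's gene order (assembly GRCm38.p6) has 11 Hox genes in HoxA, 10 in HoxB, 9 in HoxC and 9 in HoxD, with 0 other protein-coding genes between the outermost ones. Hoxa13 faces the gene Evx1, Hoxb13 faces Ttll6, Hoxc13 faces Calcoco1 and Hoxd13 faces Evx2. Because the table is in mm9, regions were not assigned to single genes. They are placed by the distance of their centre from the edge of the interval on the side of the group 13 gene, and some may lie in a neighbouring gene.

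The clusters also hold microRNAs, short RNAs that repress transcripts through their seed, and these show the kinship of the clusters. MicroRNAs of the miR-196 family lie in HoxA (miR-196b) and in HoxB and HoxC (miR-196a), and those of the miR-10 family lie in HoxB (miR-10a) and HoxD (miR-10b). Their mature sequences are taken from RefSeq (GRCm38.p6) and shown 5′ to 3′, with the seed (bases 2 to 8) in capitals.
mmu-miR-196b-5p: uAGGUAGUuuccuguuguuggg
mmu-miR-196a-5p: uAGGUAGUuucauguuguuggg
mmu-miR-10a-5p: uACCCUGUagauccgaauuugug
mmu-miR-10b-5p: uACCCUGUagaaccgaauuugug
The miR-196 sequences share 1 seed and the miR-10 sequences share another. ATAC-seq does not measure their levels.

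RefSeq's promoter table (GRCm38.p6, windows that lie mostly upstream of a gene's start) held 10 windows of HoxA genes, 3 of HoxB, 1 of HoxC and 10 of HoxD. The series is titled for loss of the transcription factor GATA6, so the windows were searched on both strands for AGATAA, a core that GATA factors bind. It was in 0 of 10 windows of HoxA, 0 of 3 of HoxB, 0 of 1 of HoxC and 0 of 10 of HoxD. Of all 32851 windows 11.2% held it. Other spellings of the core were not searched, some Hox genes have no window, and the difference was not tested. TTTATG, a core that CDX factors bind, was in 1 of 10 windows of HoxA, 1 of 3 of HoxB, 0 of 1 of HoxC and 3 of 10 of HoxD, against 11.9% of all. The HoxA share of 10.0% is near that of all windows, and HoxB has only 3 windows. The windows of HoxA and HoxB with a match are shown 5′ to 3′ on the gene's strand, and those of HoxD are not shown. They were picked because these 2 clusters held the called regions that lay next to each other, and a link of matches to called regions was not tested. Capitals mark TTTATG or its reverse complement. Hoxa7 (GRCm38.p6 chr6:52218524-52218823, minus strand) and Hoxb8 (GRCm38.p6 chr11:96281655-96281954, plus strand) held 2 matches each.
Hoxa7: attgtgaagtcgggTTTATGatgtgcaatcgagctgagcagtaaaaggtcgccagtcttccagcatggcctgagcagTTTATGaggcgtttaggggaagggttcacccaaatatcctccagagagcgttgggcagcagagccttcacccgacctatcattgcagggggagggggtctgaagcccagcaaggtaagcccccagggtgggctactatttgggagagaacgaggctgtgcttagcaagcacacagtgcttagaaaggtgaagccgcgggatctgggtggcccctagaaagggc
Hoxb8: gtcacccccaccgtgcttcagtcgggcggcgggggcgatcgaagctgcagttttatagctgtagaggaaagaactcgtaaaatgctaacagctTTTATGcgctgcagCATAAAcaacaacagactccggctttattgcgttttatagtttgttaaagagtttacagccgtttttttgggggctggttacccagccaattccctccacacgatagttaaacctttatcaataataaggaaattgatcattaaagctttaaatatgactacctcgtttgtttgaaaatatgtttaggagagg
A match is a description of the letters and not a site shown to be bound, and these windows could not be placed on the table's regions. Median GC content was 56.5% in the HoxA windows, 58.0% in HoxB and 58.5% in HoxD, against 52.7% over all windows.

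The clusters differed in how many accessible regions they held. HoxA had 12 regions per 100 kb, and of 17584 windows of its length (150 kb) 0.233% held at least as many. These windows were tiled over the chromosomes, and 41.8% of them held 0 regions. HoxB had 5.91 regions per 100 kb, and 6.09% of windows of its length (220 kb) held at least as many. HoxC had 1.25 regions per 100 kb, and 43.4% of windows of its length (160 kb) held at least as many. HoxD had 0 in 160 kb, as did 40.4% of windows of that length, and the stretch without a region there ran over 246 kb, from 74417396 to 74663584 on chromosome 2. The table gives 1 set of regions for all lines, so the absence of a region does not show in which lines the DNA was closed.

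By their medians, regions of HoxB were wider than those of HoxA and held less signal per length, and the ranges overlapped. Their median width was 1857 bp (284 to 2766), against 903 bp in HoxA (391 to 3253) and 746 bp over all regions. Mean signal per length over all 15 lines had a median of 27.4 CPM per kb in HoxA (9.23 to 103.1). It was 12.3 in HoxB (6.995 to 26.0) and 17.3 over all regions. The strongest region of HoxA was peak_81915 (chromosome 6, 52171536 to 52172546), and that of HoxB was peak_15441 (chromosome 11, 96131324 to 96133868).

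The main comparison set metastasis lines against primary lines in rounds 2 and 3, where both kinds exist. The called regions of HoxA and of HoxB lay in opposite directions. In HoxA 4 of 18 regions rose in metastasis lines and 0 fell, and the largest rise was at peak_81909, with a log2 fold change of 2.94. In HoxB 5 of 13 regions fell and 0 rose, and the largest fall was at peak_15446, with a log2 fold change of -2.39. In HoxC 1 of 2 regions rose. In all 10 of 33 members were called (edgeR quasi-likelihood test), or 30.3%, against 20.2% of all regions (11.2% higher, 8.98% lower). The share called was 22.2% in HoxA, near that of all regions, and 38.5% in HoxB. On chromosome 6, which holds HoxA, 16.3% of the regions tested were called higher and 6.07% lower. On chromosome 11, which holds HoxB, 5.71% were called higher and 11.2% lower. Differences between these shares were not tested.

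Members that were not called mostly had the sign of their cluster. All 13 HoxB regions had a negative log2 fold change, with a median of -1.03, and 15 of 18 HoxA regions had a positive one, with a median of 0.46. Over all regions the median was 0.04, with 21061 of 39952 positive. With scaling by total counts 14 HoxA regions were positive and 13 HoxB regions negative. Chromosome 6, which holds HoxA, had a median log2 fold change of 0.23 over its 2423 regions tested, and chromosome 11, which holds HoxB, had -0.12 over 2662. With each library's chromosome medians removed, 13 HoxA regions were positive and 13 HoxB regions negative, with medians of 0.28 and -0.87. With that setting 3 HoxA and 5 HoxB regions were called, and the share called over all regions is not given here.

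**Figure D1:**
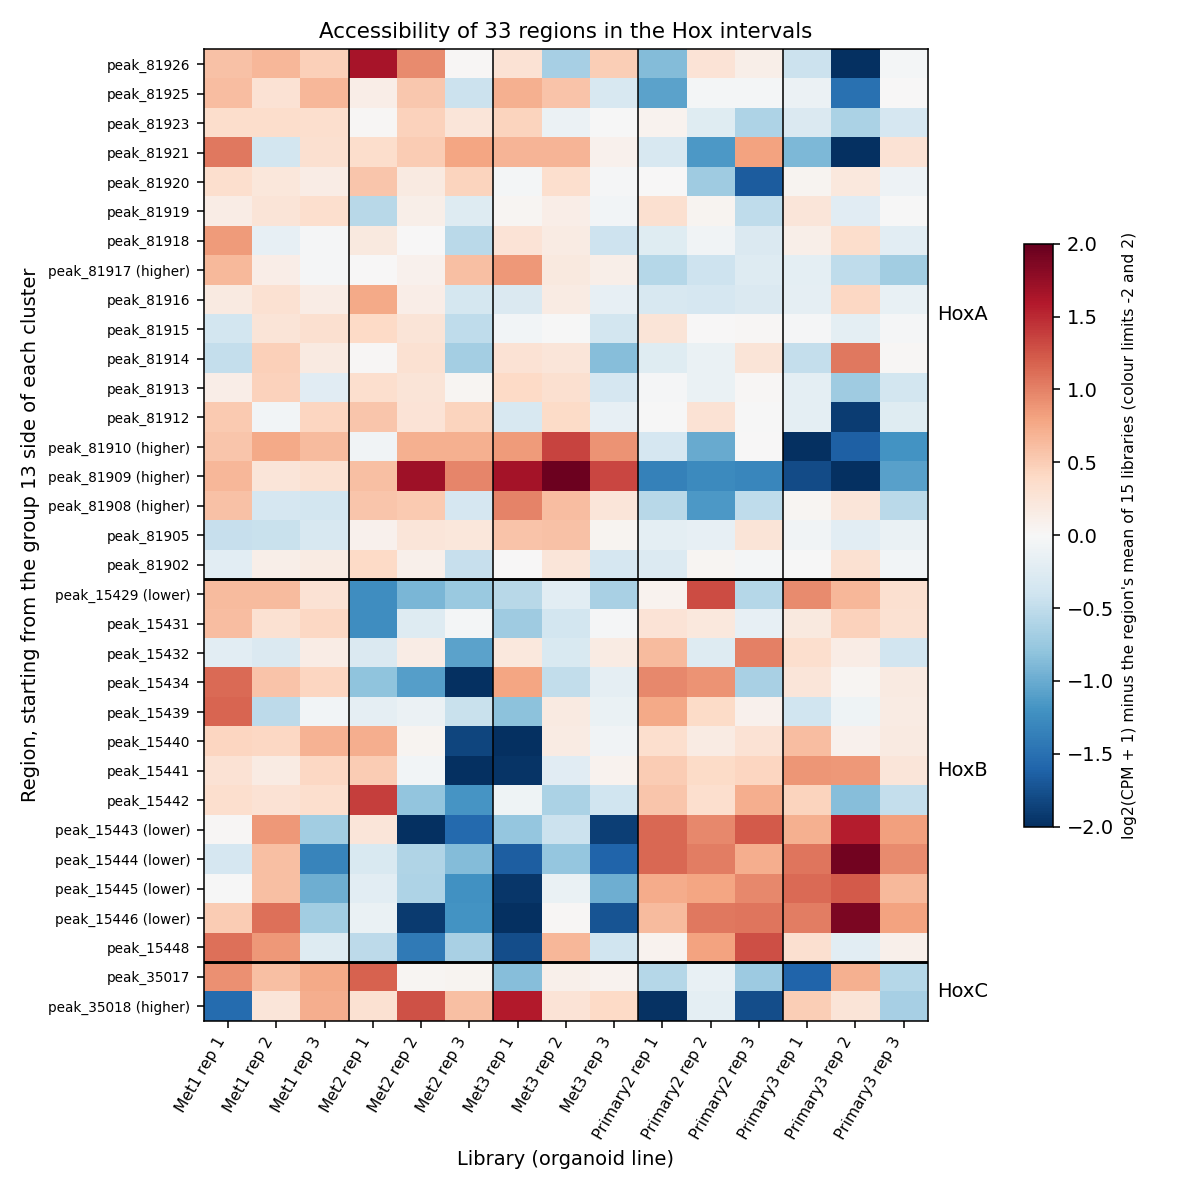
Accessibility of the 33 members (rows, starting from the group 13 side of each cluster) in the 15 lines (columns, by group), as log2(CPM + 1) minus the row's mean, with colours limited at -2 and 2. Rows marked higher or lower were called between metastasis and primary lines. The rows from peak_15443 to peak_15446 are red in all 6 primary lines and blue in most Met2 and Met3 lines, and peak_81909 is blue in all 6 primary lines.

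Summed over its 18 regions (20194 bp), HoxA stood at 676, 680.1 and 675 CPM in the Met1 lines, 784, 783 and 593 in the Met2 lines and 792, 824 and 594 in the Met3 lines. Primary2 held 549, 537 and 556 CPM and Primary3 559, 574 and 538. All 9 metastasis lines lay above all 6 primary lines with TMM scaling, whereas with total counts they overlapped (578 to 772 against 524 to 630.2). The log2 ratio of metastasis to primary lines over rounds 2 and 3 was 0.39, with a mean SD within groups of 0.14 on the log2 scale. It was 0.23 without peak_81909 and peak_81910, a choice made after their values were seen, and metastasis lines (506 to 734) then overlapped primary lines (521 to 567).

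HoxB, summed over 13 regions (20693 bp), held 353, 340.3 and 359 CPM in Primary2 and 379, 391.9 and 292 in Primary3. The Met2 lines held 264, 184 and 103 CPM and the Met3 lines 107, 216 and 198. Each of these 6 lines lay below each primary line, also with total counts (99.0 to 254 against 288 to 431). The Met1 lines, at 327, 312 and 269 CPM, lay above all Met2 and Met3 lines and overlapped the primary lines. The log2 ratio over rounds 2 and 3 was -1.06, with a mean SD within groups of 0.38.

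HoxC, with 2 regions (977 bp), held 15.8, 18.1 and 22.4 CPM in Met1, 24.6, 21.5 and 16.1 in Met2 and 21.3, 14.5 and 14.9 in Met3. Primary2 held 5.21, 10.9 and 4.84 CPM and Primary3 9.44, 19.1 and 7.57. Only Primary3 replicate 2, the shallowest library, lay within the range of the metastasis lines. The log2 ratio was 1.116, with a mean SD within groups of 0.49.

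**Figure D2:**
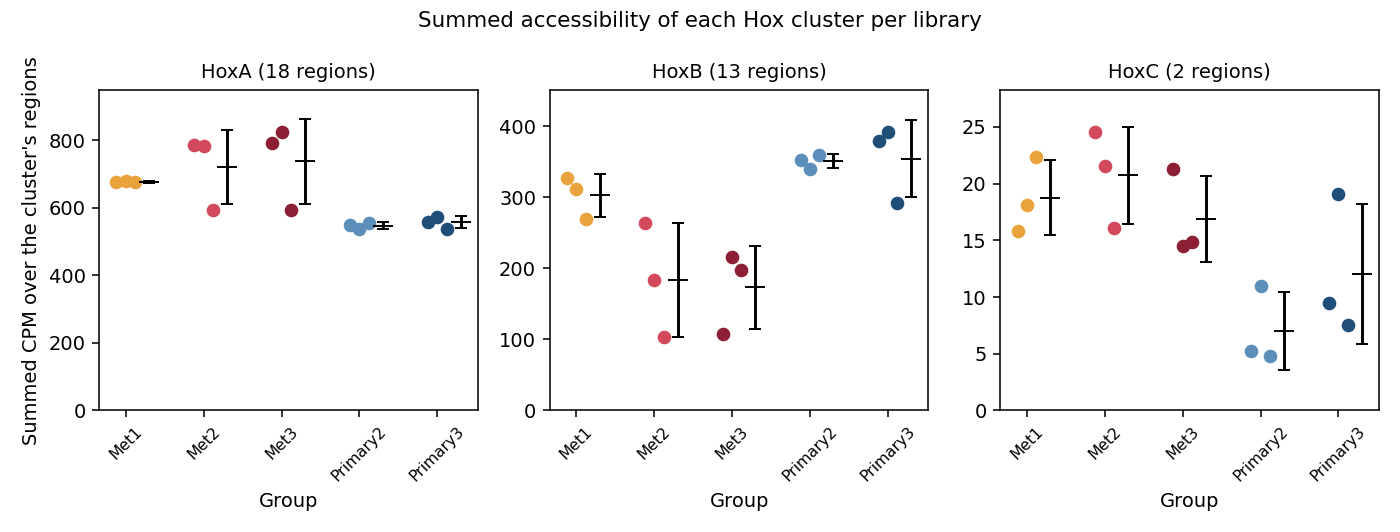
Summed CPM over the regions of HoxA, HoxB and HoxC (vertical axes from 0, a scale for each panel) in each line (points) by group, with the mean and SD of 3 lines in black. In HoxA the metastasis lines, at 593 to 824, lie above the primary lines, at 537 to 574. In HoxB the Met2 and Met3 lines, at 103 to 264, lie below the primary lines, at 292.5 to 391.9.

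In HoxA, 3 of the 4 regions that rose followed each other between 52140565 and 52154713 on chromosome 6, from 75.5 to 88.5 kb from the edge on the Hoxa13 side. The middle one, peak_81909 (52149950 to 52151824), held 9.27, 9.85 and 9.68 CPM in Primary2 and 6.64, 3.19 and 11.4 in Primary3. It held 40.8, 30.1 and 31.6 CPM in Met1, 39.2, 84.7 and 51.0 in Met2 and 82.6, 102 and 65.4 in Met3. All 9 metastasis lines lay above all 6 primary lines, and the Met1 lines lay below all Met3 lines. Over rounds 2 and 3 the log2 fold change was 2.94 ± 0.25 (SE, 6 lines against 6, edgeR adjusted p = 1.332e-07). It was called in round 2 (2.61, adjusted p = 0.0002201) and in round 3 (3.27, adjusted p = 1.741e-05).

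Its neighbour peak_81910 (52154194 to 52154713) held 9.27, 5.47 and 12.1 CPM in Primary2 and 1.75, 3.19 and 4.64 in Primary3. It held 18.1, 20.9 and 19.1 CPM in Met1, 11.3, 20.2 and 20.3 in Met2 and 22.5, 32.0 and 23.3 in Met3. Only Met2 replicate 1 fell within the range of the primary lines. Its log2 fold change was 1.95 ± 0.33 (edgeR adjusted p = 0.0001954). By round it was 0.97 in round 2, which was not called (adjusted p = 0.2079), and 2.93 in round 3, which was (adjusted p = 0.000624), and the difference between the rounds was not called (adjusted p = 0.6597).

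On the other side, peak_81908 (52140565 to 52142432) held 18.0, 11.49 and 18.6 CPM in Primary2 and 27.6, 31.9 and 18.1 in Primary3, against 39.8, 39.0 and 21.0 in Met2 and 54.1, 41.6 and 31.7 in Met3. Lines of round 2 did not overlap, and in round 3 Met3 replicate 3 lay just below Primary3 replicate 2. The Met1 lines, at 40.8, 20.9 and 20.6 CPM, reached from the range of Primary3 to above it. The rise of 0.94 ± 0.26 on the log2 scale (edgeR adjusted p = 0.01333) was 0.82 and not called without Primary3 replicate 3 (adjusted p = 0.0553). Neither round alone was called (edgeR adjusted p = 0.091 in round 2 and 0.1791 in round 3).

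The fourth region, peak_81917 (52179593 to 52180170), lay apart, 50.1 kb from the edge. It held 12.2, 13.7 and 15.3 CPM in Primary2 and 16.1, 12.7 and 11.01 in Primary3, against 29.4, 20.3 and 18.2 in Met1, 18.6, 19.7 and 28.7 in Met2 and 34.6, 21.4 and 20.1 in Met3. All metastasis lines lay above all primary lines. The rise of 0.81 ± 0.27 (edgeR adjusted p = 0.03408) was 0.66 and not called with chromosome medians removed (adjusted p = 0.1033). It was also not called without Met2 replicate 3 (0.70), Met3 replicate 1 (0.67), Primary2 replicate 1 (0.77), Primary2 replicate 2 (0.82) or Primary3 replicate 3 (0.73). Neither round alone was called (edgeR adjusted p = 0.3002 in round 2 and 0.1287 in round 3).

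The other 14 HoxA regions were not called, with log2 fold changes from -0.11 (peak_81919) to 0.86 (peak_81926). At the strongest HoxA region, peak_81915, mean CPM was 110.3 ± 27.0 in Met1, 110 ± 33.4 in Met2, 93.6 ± 12.2 in Met3, 110.1 ± 11.01 in Primary2 and 96.7 ± 6.51 in Primary3 (SD, n = 3). Its groups overlapped, and its log2 fold change was -0.03 ± 0.17. At the widest, peak_81902 (52108108 to 52111361), the log2 fold change was 0.04 ± 0.16. Neither was called under any alternative, and the sign of both changed under some. Over the cluster, 2 regions (peak_81909 and peak_81917) had every metastasis line above every primary line of its round, which held for 5.77% of all regions.

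**Figure D3:**
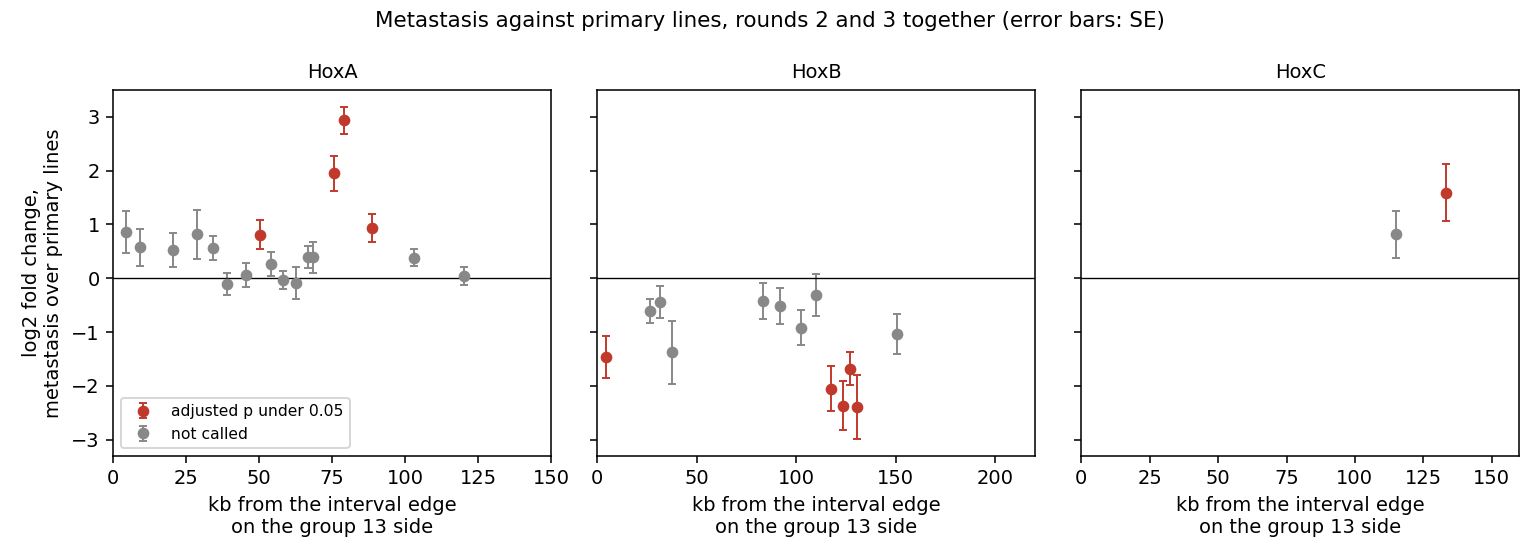
Log2 fold change of metastasis over primary lines in rounds 2 and 3 together (points, with SE as bars) against the distance of each region's centre from the interval's edge on the group 13 side, in kb, for HoxA, HoxB and HoxC. Red points were called. The 3 largest HoxA values lie between 75.5 and 88.5 kb, and 4 of the 5 called HoxB regions lie between 117.7 and 130.5 kb.

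In HoxB, 4 of the 5 regions that fell followed each other between 96146726 and 96160739 on chromosome 11, from 117.7 to 130.5 kb from the edge on the Hoxb13 side. The one with the smallest adjusted p, peak_15445 (96155845 to 96158335), held 40.5, 42.1 and 47.6 CPM in Primary2 and 53.5, 57.4 and 38.0 in Primary3. It held 23.8, 36.8 and 11.6 CPM in Met1, 20.6, 15.2 and 9.78 in Met2 and 5.47, 21.8 and 11.6 in Met3. All 9 metastasis lines lay below all 6 primary lines. On the log2 scale the change was -1.68 ± 0.31 (edgeR adjusted p = 0.0004523). It was called in round 2 (-1.50, adjusted p = 0.03862) and in round 3 (-1.85, adjusted p = 0.008646).

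At peak_15443 (96146726 to 96148583), the primary lines held 28.4, 24.6 and 29.8 CPM in Primary2 and 20.6, 38.2 and 22.2 in Primary3. The Met2 lines held 14.6, 1.79 and 3.50 CPM and the Met3 lines 6.68, 8.77 and 2.59, all below the primary lines. Met1, at 12.4, 23.2 and 7.16 CPM, reached the primary range with replicate 2. Together the rounds gave a change of -2.05 ± 0.42 on the log2 scale (edgeR adjusted p = 0.001233), and it was called in both rounds (-2.10 and -2.0). It was -2.70 without Met2 replicate 1, the highest of the Met2 and Met3 lines.

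The narrow peak_15444 (96153276 to 96153847) held 14.5, 13.1 and 10.5 CPM in Primary2 and 13.6, 25.5 and 12.4 in Primary3, against 4.53, 9.52 and 1.79 in Met1, 4.65, 3.59 and 2.80 in Met2 and 1.22, 3.05 and 1.30 in Met3. All metastasis lines lay below all primary lines. It changed by -2.36 ± 0.45 on the log2 scale (edgeR adjusted p = 0.0006135), with -1.78 in round 2, not called, and -2.95 in round 3, called.

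The last of the 4, peak_15446 (96160256 to 96160739), held 7.53, 10.4 and 10.5 CPM in Primary2 and 10.1, 19.1 and 8.60 in Primary3, against 6.79, 10.8 and 2.39 in Met1, 3.98, 0.448 and 1.40 in Met2 and 0, 4.58 and 0.648 in Met3. Met2 and Met3 lines lay below all primary lines, and Met1 replicate 2 lay among them. The count of 0 in Met3 replicate 1 allows up to 1.69 CPM, by counting error only. The log2 fold change was -2.39 ± 0.59 (edgeR adjusted p = 0.005647), and -3.62 without Met3 replicate 2, the highest Met3 line. This region was called in neither round alone (edgeR adjusted p = 0.1064 in round 2 and 0.05919 in round 3). At all 4 regions replicate 2 was the highest and replicate 3 the lowest of the Met1 lines.

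The fifth region that fell, peak_15429 (96033772 to 96034756), lay 4.3 kb from the edge on the Hoxb13 side and was chosen after its values were seen, to complete the count. It held 8.11, 20.2 and 4.84 CPM in Primary2 and 15.7, 12.7 and 9.80 in Primary3, against 2.66, 3.59 and 4.19 in Met2 and 4.86, 6.48 and 4.53 in Met3. In each round the metastasis lines lay below the primary lines, and the Met1 lines (12.4, 12.4 and 9.55) lay within the primary range. Its log2 fold change was -1.46 ± 0.39 (edgeR adjusted p = 0.01016), and neither round alone was called (edgeR adjusted p = 0.07887 in round 2 and 0.156 in round 3). These 5 called regions were the 5 HoxB regions with every metastasis line below every primary line of its round, which held for 4.96% of all regions. The calls and this lack of overlap come from the same values, so the match is no separate support.

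**Figure D4:**
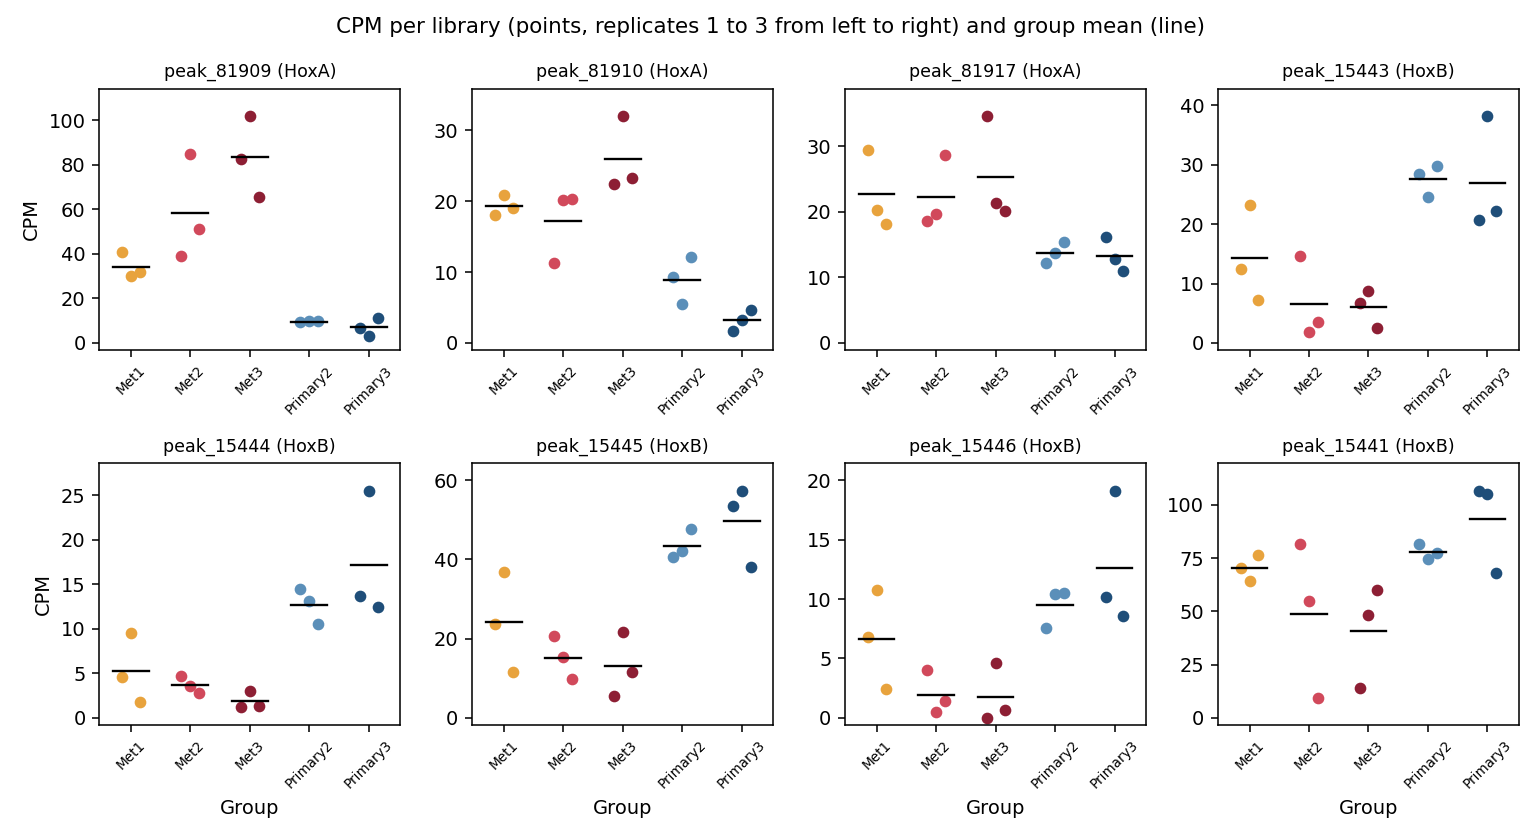
CPM (vertical axes, a scale for each panel) of 8 members in each line (points, replicates 1 to 3 from left to right) by group, with the group mean as a line. At peak_81909 the metastasis lines, from 30.1 up, lie above the primary lines, at up to 11.4, and at peak_15443 to peak_15446 the Met2 and Met3 lines lie below the primary lines. At peak_15441, Met2 replicate 3 and Met3 replicate 1 stand below the other 13 lines.

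The strongest HoxB region varied among metastasis lines. At peak_15441 the primary lines held 81.7, 74.4 and 77.4 CPM in Primary2 and 107, 105 and 68.1 in Primary3, and the Met1 lines held 70.2, 64.4 and 76.4. The Met2 lines held 81.7, 54.7 and 9.09 CPM and the Met3 lines 14.0, 48.4 and 60.2. Met2 replicate 3 and Met3 replicate 1 stood far below the others. The log2 fold change of -0.92 ± 0.33 was not called (edgeR adjusted p = 0.05223), but it was called without Met2 replicate 1 (-1.19, adjusted p = 0.01145) and without Met3 replicate 3 (-1.10, adjusted p = 0.03041).

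The same pair of lines was low at the widest HoxB region, peak_15440 (96120412 to 96123178), which lies 8146 bp away. It held 50.5, 31.4 and 7.69 CPM in Met2 and 5.47, 33.95 and 28.5 in Met3, against 38.2, 33.9 and 37.1 in Primary2, 46.9, 31.9 and 34.4 in Primary3 and 40.8, 40.6 and 49.2 in Met1. Apart from the low pair, metastasis and primary lines overlapped, and the log2 fold change was -0.51 ± 0.34 (edgeR adjusted p = 0.3235). Log2 CPM of both regions correlated at r = 0.93 over 15 lines.

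Some neighbouring regions of HoxB followed each other and others did not. Within the cluster, log2 CPM of peak_15445 was most like that of peak_15444 (Pearson r = 0.94), peak_15446 (r = 0.94) and peak_15443 (r = 0.84), the called regions around it. With peak_15442 r was 0.28, and peak_15431 and peak_15432, 3573 bp apart, had r = 0.04. In HoxA, peak_81909 was most like peak_81910 (r = 0.88), peak_81917 (r = 0.77) and peak_81923 (r = 0.74), while r was -0.04 with the strongest region, peak_81915. The HoxC pair had r = 0.06. These values are over 15 lines that share group differences and depth, and they describe the lines.

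The other HoxB regions had log2 fold changes from -1.38 (peak_15434, on few counts) to -0.31 (peak_15442). Of these peak_15431 (-0.61, edgeR adjusted p = 0.05234) and peak_15448 (-1.03, adjusted p = 0.05542) lay just outside the threshold. The regions in this paragraph were chosen after their values were seen.

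The HoxC regions were narrow, at 430 and 547 bp, and held 15.45 and 15.43 CPM per kb. At peak_35018 (chromosome 15, 102863120 to 102863550), the primary lines held 0.579, 4.38 and 0.807 CPM in Primary2 and 7.69, 6.37 and 2.92 in Primary3. The Met1 lines held 1.13, 6.34 and 9.25 CPM, Met2 6.64, 13.9 and 8.39 and Met3 17.6, 6.48 and 7.12. Metastasis and primary lines did not overlap in round 2 and overlapped in round 3. Its log2 fold change of 1.59 ± 0.52 (edgeR adjusted p = 0.03195) was 2.35 without Primary2 replicate 2. It was not called without Met2 replicate 2 (1.40), Met3 replicate 1 (1.29), Primary2 replicate 1 (1.36), Primary2 replicate 3 (1.44) or Primary3 replicate 3 (1.37). Neither round alone was called (edgeR adjusted p = 0.08285 in round 2 and 0.4457 in round 3).

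The other HoxC region, peak_35017 (102844620 to 102845167), was not called (log2 fold change 0.82 ± 0.44, edgeR adjusted p = 0.2041). It held 14.72, 11.7 and 13.1 CPM in Met1, 17.9, 7.62 and 7.69 in Met2, 3.64, 8.01 and 7.77 in Met3, 4.63, 6.56 and 4.03 in Primary2 and 1.75, 12.7 and 4.64 in Primary3. Met2 replicate 1 was highest, and the groups of each round overlapped in round 3 only.

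By round, 3 of 33 members were called between Met2 and Primary2, 1 higher in HoxA and 2 lower in HoxB, against 6.21% of all regions (3.44% higher, 2.77% lower). The count was 5 without Met2 replicate 1, and 1 without Met2 replicate 2, Met2 replicate 3, Primary2 replicate 2 or Primary2 replicate 3. Between Met3 and Primary3, 5 members were called, 2 higher in HoxA and 3 lower in HoxB, against 10.2% of all regions (5.64% higher, 4.52% lower). This count was 3 without Met3 replicate 1 or without Primary3 replicate 1.

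The rounds share no library, but the descent of the lines is not given. Neighbouring regions also correlated, at up to r = 0.94 in HoxB, so the counts of signs are not counts of independent repeats. At the HoxB region peak_15432 the value in round 3 was only -0.001. The log2 fold change had the same sign in both rounds at 13 of 13 HoxB regions, 14 of 18 HoxA regions and 2 of 2 HoxC regions, against 68.0% of all regions. For the difference between the rounds, 0 members were called by edgeR, against 0.0% of all regions, and 0 by DESeq2, which gave no adjusted p for 11. Either tool had 3 members at an unadjusted p under 0.05.

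The round 1 metastasis lines were set against later ones to see how the clusters stood along the series. Between Met3 and Met1, 2 members were called, both higher and in HoxA, against 9.54% of all regions (5.98% higher, 3.56% lower). These were peak_81909, at 1.31 ± 0.31 on the log2 scale (edgeR adjusted p = 0.009309), and peak_81905 (52126600 to 52127583), with 0.85 ± 0.21 (adjusted p = 0.01385). At peak_81905 the Met1 lines held 53.2, 53.9 and 58.8 CPM, below the Met2 lines (79.0, 87.4 and 86.7) and the Met3 lines (111, 111 and 77.0). The primary lines, at 64.3, 65.6 and 88.7 CPM in Primary2 and 70.6, 63.7 and 67.8 in Primary3, also lay above all Met1 lines. The count was 0 without Met1 replicate 2, 1 without Met3 replicate 1 (peak_81909), and 1 without Met3 replicate 2, where neither of these was called and 1 HoxB region was.

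In HoxB no region was called against Met1. The median log2 fold change over its 13 regions was -0.83 between Met3 and Met1 and -0.66 between Met2 and Met1, comparisons that share the Met1 lines. At 5 HoxB regions every Met3 line lay below every Met1 line, which held for 13.8% of all regions, and at 0 every Met3 line lay above. In HoxA the Met3 lines lay above the Met1 lines at 3 regions, against 15.9% of all regions, and below at 1.

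Between Met2 and Met1, 0 of 33 members were called by edgeR and 0 by DESeq2, with 7 at an unadjusted p under 0.05 by either. Of all regions edgeR called 3.55%, 2.64% higher and 0.909% lower. Without Met2 replicate 1 edgeR called 2. Between Met3 and Met2 both tools called 0 members (1 at an unadjusted p under 0.05 by either), and likewise between Primary3 and Primary2 (1 by either), against 0.0% of all regions called by edgeR in both comparisons. DESeq2 gave no adjusted p for 7 members between Met3 and Met2 and for 11 between Primary3 and Primary2, so it could not call these.

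The surroundings of HoxB, HoxC and HoxD were followed over 500 kb on each side, a choice made after the values of the clusters were known. Beside HoxB, 0 of 24 regions were called higher and 3 lower on the Hoxb13 side, with a median log2 fold change of -0.37. On the Hoxb1 side 1 of 13 regions was higher and 1 lower, with a median of -0.02. The lower one, peak_15457 (96274888 to 96275692), is the nearest to the interval, 24.9 kb beyond it, and its log2 fold change was -2.09 (edgeR adjusted p = 0.001398).

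The HoxB median of -1.03 was below the medians of both its sides. Beside HoxC, 1 of 17 regions was higher and 0 lower on the Hoxc13 side, with a median of 0.32, and 0 of 18 were higher and 1 lower on the Hoxc4 side, with a median of -0.28. Beside HoxD 5 regions were tested, 3 on the Hoxd13 side, of which 2 were higher, and 2 on the Hoxd1 side, with 0 called. Differences between a cluster and its surroundings were not tested.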

How the data were processed

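ATAC-seq libraries were made from 15 organoid lines, 3 in each of 5 groups, with 50000 cells per library per the labels' protocols. The authors deposited raw read counts per region in 1 table for all lines, with a peak score per region, which is the authors' own value and is not used in a test. Bowtie, Picard, SAMtools, MACS2 and bedtools, with the build mm9, are named in the submitters' processing notes without roles or versions. Regions carry no gene names and no mm9 annotation was used, so markers and gene lists were not checked.

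Counts were tested with edgeR 4.0.16 (R 4.3.3, limma 3.58.1), with TMM scaling, filterByExpr (minimum count 10, which kept 39952 regions, or 92.9%), a quasi-likelihood fit of all 5 groups and Benjamini-Hochberg adjustment over all regions tested. Library totals were 285633 to 5916109 counts, which limits weak regions most in the shallow libraries. Floors of 3 counts are scaled to the library's total without TMM adjustment and cover counting error only. Correlations use log2 CPM with a prior count of 2. Scripts were tested on simulated data. Alternatives were DESeq2 1.42.0, total-count scaling, no filter, a replicate block, chromosome medians removed, a fit of only the groups compared and fits without single lines, and, chosen after seeing the data, a fit without the 2 shallowest libraries. Same-numbered lines did not deviate together (correlations of -0.112 to 0.142), so numbers were not taken as pairs.

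Named regions are, per cluster, up to 4 per direction with the smallest adjusted p between metastasis and primary lines, up to 2 per direction between Met3 and Met1, the region with the highest mean CPM and the widest. Members and lists were chosen with earlier results of these data known. The surroundings of HoxA are not reported here.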

Additional observations from a re-analysis of the deposited data

How the results depend on the processing

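The number of members called between metastasis and primary lines over rounds 2 and 3 was 10. It was 9 to 13 under the 7 other settings and 7 to 13 when single lines were left out. Here and above, shares called over all regions are given only for the main fit. Whether a count under an alternative moved with the calls over all regions was therefore not tested. HoxA regions called higher numbered 2 to 6 and HoxB regions called lower 4 to 8 over these 19 alternatives, and 0 were called in the opposite direction. HoxA held 2 without Primary3 replicate 3 and HoxB held 8 without Met2 replicate 1. HoxB had 0 positive values in any of them. The Met2 against Primary2 count of 3 became 5 with DESeq2 and 1 with chromosome medians removed, and 1 to 5 without single lines, so it is the least stable count. The Met3 against Primary3 count of 5 ranged from 3 to 6 without single lines and from 4 to 7 otherwise. Without single lines the Met3 against Met1 count of 2 ranged from 0 to 2 and the Met2 against Met1 count of 0 from 0 to 2. With the replicate block, 10 members were called over rounds 2 and 3 and 6 in round 3. Log2 ratios of summed signal, with single lines left out, ranged from 0.343 to 0.461 in HoxA, from -1.214 to -0.877 in HoxB and from 0.978 to 1.312 in HoxC. Of 311 alternative values for named regions, 281 kept their direction and side of the threshold, 17 lost their call and 4 gained it. Another 9 changed sign, all at the 2 uncalled HoxA regions with values near 0. The 281 include values of regions not called to begin with, such as peak_15440 and peak_35017, which stayed uncalled. A call could be lost only at called regions, so the tally is not a measure of how stable the calls are. The called peak_15429 was not among the named regions. At peak_81915 the log2 fold change of -0.029 became 0.011 with DESeq2, and 0.081, 0.02 and 0.011 without Met2 replicate 3, Met3 replicate 3 and Primary2 replicate 1 (-0.113 to 0.081 over all single lines left out). At peak_81902 the value of 0.041 became -0.017 with total counts, -0.156 with chromosome medians removed, and -0.059, -0.034 and -0.008 without Met2 replicate 1, Met3 replicate 2 and Primary2 replicate 1 (-0.059 to 0.141 over all single lines left out). Depth limits the weak regions most: 4 counts of 0 occurred among the members, 2 of them in Primary3 replicate 2, where 0 counts allow up to 10.5 CPM.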
